A study of Mus musculus with 9 samples.

Results

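Muscle relaxes when calcium is pumped back into the sarcoplasmic reticulum, and 6 genes of that step are described here: the pumps Atp2a1 and Atp2a2, the pump inhibitors Sln, Pln and Mrln, and the calcium buffer gene Pvalb. They were taken by symbol from the table of normalised counts, which held all 6 among its 13179 genes. All 6 passed the low-value filter (3 or more libraries with a value of 1 or higher), as did 13137 genes in all.

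Calcium released from the sarcoplasmic reticulum starts contraction, and the SERCA pumps return it at the cost of ATP. Atp2a1 encodes SERCA1, the pump of fast fibres, and Atp2a2 encodes SERCA2, the pump of slow fibres and the heart. Sarcolipin (Sln), phospholamban (Pln) and myoregulin (Mrln) are small membrane proteins that bind the pumps and lower their activity. Sarcolipin is also known for making the pump spend ATP without moving calcium, which releases heat. Parvalbumin (Pvalb) binds calcium in the cytosol of fast fibres.

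The libraries were made from polyadenylated RNA of mouse gastrocnemius, the calf muscle, in which fast fibres predominate, after 6 weeks of a high-fat diet that the controls received too. The 3 groups of 3 libraries carried the genotypes p38alphaMCK-KO (p38α KO), p38alpha/gammaMCK-KO (p38α/γ KO) and control, and the study set each knockout against the control and the knockouts against each other. MCK stands for muscle creatine kinase, whose promoter is active in skeletal muscle and heart; the labels give neither the construct nor the age, sex or strain of the mice. The labels do not say that the samples of a group came from separate mice, so the p-values measure the spread between these samples only.

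Depth, inferred from the spacing of the values, was 23820968 to 27944409 reads per library. Mapk14, which encodes p38α, averaged 43.2 ± 2.63 normalised counts in the p38α KO, 44.8 ± 9.03 in the p38α/γ KO and 150 ± 7.01 in the controls (SD, n = 3 each). Mapk12, which encodes p38γ, averaged 102 ± 4.46, 33.2 ± 2.18 and 143 ± 7.74 normalised counts in the same order of groups. Mapk14 fell in both knockouts and Mapk12 in the p38α/γ KO, as labelled, and Mapk12 was also lower in the p38α KO, whose label names p38α only (log2 difference -0.49, limma adjusted p = 0.00601). Library 1 of the p38α KO stood apart, with correlations of 0.976 and 0.96 to libraries 2 and 3 of its group, against 0.987 to 0.993 within the other groups. Differences of the p38α KO from control without it are given for each member. Fibre genes such as Acta1, Ckm and Myh4 were abundant in every library, and 5 of 7 heart markers (Nppa, Nppb, Myl7, Nkx2-5 and Tbx5) were not among the genes of the table. The other 2, Myl4 and Myh6, summed to 92.2, 20.5 and 13.4 normalised counts in libraries 1, 2 and 3 of the p38α KO. Their sums were 14.2, 70.3 and 26.3 in the p38α/γ KO, and 9.84, 16.5 and 12.4 in the controls. Limma called 0 of these 2 in either knockout against control.

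The inhibitors are encoded by very short reading frames. They are shown because Sln, the member called with all 9 libraries in the fit, has the shortest of the 3. The sequences are the coding parts of the transcripts Sln-201 (31 codons before the stop, 7.28% of the transcript), Mrln-201 (46 codons, 31.8%) and Pln-201 (52 codons, 6.81%) from GENCODE M21, read on the plus strand of GRCm38. Capitals mark the start and stop codons.
Sln: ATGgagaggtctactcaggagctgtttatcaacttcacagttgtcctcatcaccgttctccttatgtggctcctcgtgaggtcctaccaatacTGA
Mrln: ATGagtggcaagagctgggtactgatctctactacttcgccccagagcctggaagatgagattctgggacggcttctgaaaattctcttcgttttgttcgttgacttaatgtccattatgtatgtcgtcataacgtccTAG
Pln: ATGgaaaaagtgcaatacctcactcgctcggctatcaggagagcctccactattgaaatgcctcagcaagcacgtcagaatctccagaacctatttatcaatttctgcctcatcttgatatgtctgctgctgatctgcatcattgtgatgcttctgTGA

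Counted together, 1 of 6 members passed in the p38α KO, where 17.8% of all genes did, and 1 of 6 in the p38α/γ KO, where 25.6% did. The groups did not overlap for 2 of 6 members in the p38α KO, while the p38α/γ KO had 4 of 6, beside 38.6% and 55.0% of all genes. The median log2 difference of the members was -0.34 in the p38α KO, while the p38α/γ KO had -0.19, against 0.0084 and 0.015 over all genes tested. Between the knockouts limma called 0 of 6 members, with 0 of 6 at an unadjusted p below 0.05, beside 0.442% of all genes called. The knockout groups overlapped for all 6, where 14.3% of all genes did not. Leaving Sln aside, the log2 differences of the members between the knockouts, p38α KO minus p38α/γ KO, lay between -0.41 for Atp2a2 and 0.22 for Pln, and each 95% interval included 0.

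**Figure D1:**
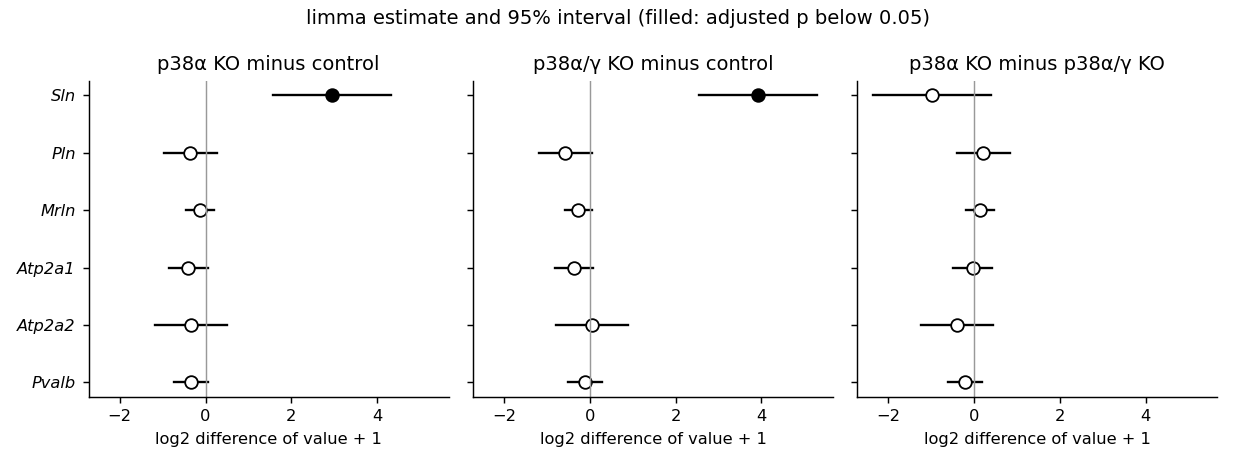
Log2 difference of value + 1 with its 95% interval for each member, for p38α KO minus control, p38α/γ KO minus control and p38α KO minus p38α/γ KO; filled points passed at a limma adjusted p below 0.05. Sln was at 2.95 and 3.92 against control, and the intervals of the other 5 members included 0.

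Sln rose in both knockouts and was the only member to pass the test in either with all 9 libraries in the fit; Pln and Mrln passed in some of the alternatives given with them. It lies at chr9:53850164-53854560 on the plus strand, with 2 exons, and its coding part is at chr9:53853473-53853568. Libraries 1, 2 and 3 of the p38α KO had 61.0, 11.8 and 7.84 normalised counts. Those of the p38α/γ KO had 21.4, 58.8 and 38.5, and those of the controls 1.36, 1.76 and 1.37. The knockout libraries all lay above all controls, and the knockouts overlapped each other. The inferred reads behind these values were 220 to 1665 per p38α KO library, 611 to 1682 per p38α/γ KO library and 31 to 44 per control library.

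Relative to control, Sln was higher by 2.95 on the log2 scale of value + 1 in the p38α KO (SE 0.62, 95% interval 1.57 to 4.32, limma adjusted p = 0.0135). This is a 7.70-fold difference of value + 1 and the 11th highest of 13137 genes. In the p38α/γ KO it was higher by 3.92 (95% interval 2.54 to 5.29, 15.1-fold, limma adjusted p = 0.00518), again the 11th highest. The means of the values as deposited differed by 18.0-fold in the p38α KO, or 6.59-fold without its library 1, and by 26.5-fold in the p38α/γ KO; adding 1 lowers the fold of a gene that is near 1 in the controls. The exact permutation test over the 6 libraries gave p = 0.1 for each comparison, two-sided, the smallest that 3 against 3 allows. Both comparisons share the same 3 controls.

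The size of the Sln rise varied within the knockouts. Without library 1 of the p38α KO, the difference from control was 2.10 (limma adjusted p = 0.00343). Without library 3 of the controls, Sln no longer passed in the p38α KO (limma adjusted p = 0.0515). Between the knockouts the log2 difference, p38α KO minus p38α/γ KO, was -0.97 (95% interval -2.35 to 0.40, limma adjusted p = 0.562). That difference did pass without library 1 of the p38α KO, at -1.82 (limma adjusted p = 0.0121).

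**Figure D2:**
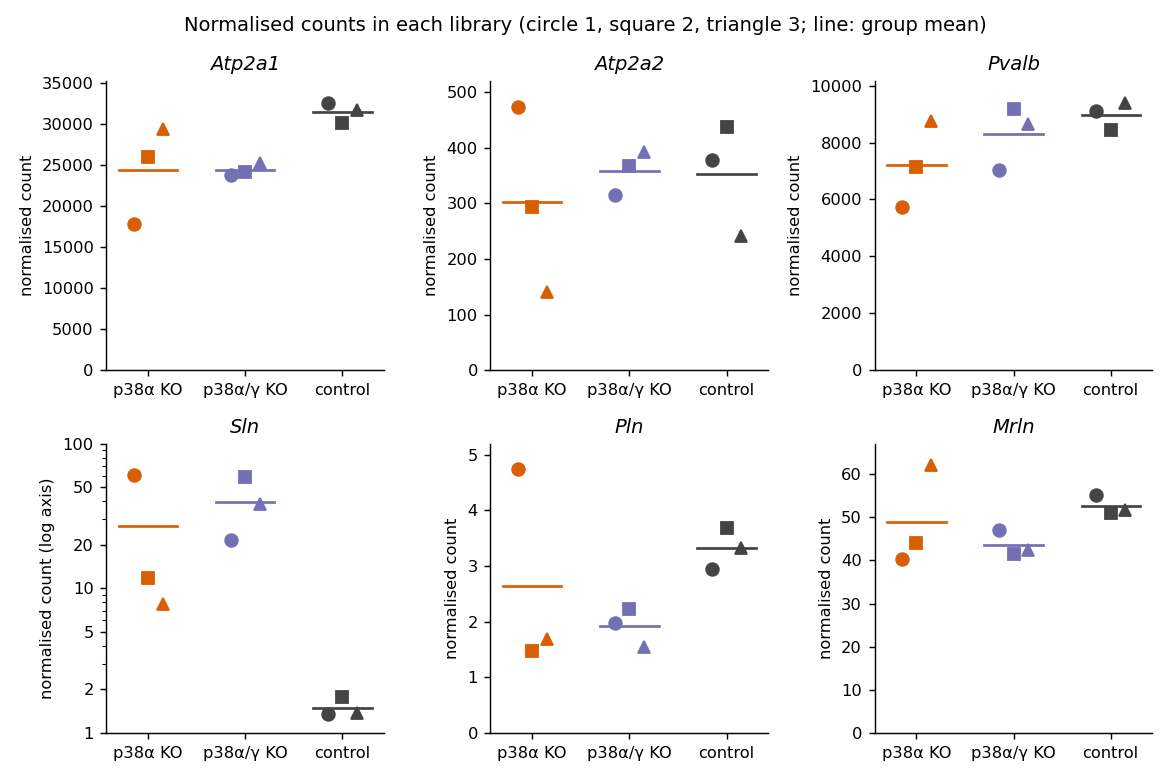
Normalised count of each member in the 3 libraries of the p38α KO, the p38α/γ KO and the control, with the line at the group mean; the Sln axis is logarithmic. Sln lay between 7.84 and 61.0 in the knockouts and between 1.36 and 1.76 in the controls, while the other members differed far less.

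Pln, best known as the SERCA2 inhibitor of the heart, had the lowest values of the 6 genes in both knockouts. It lies at chr10:53337667-53345987 on the plus strand. Libraries 1, 2 and 3 had 4.74, 1.48 and 1.69 normalised counts in the p38α KO, with 1.98, 2.22 and 1.54 in the p38α/γ KO, and 2.94, 3.69 and 3.32 in the controls. The p38α/γ KO libraries all lay below the controls, while library 1 of the p38α KO lay above them. Only 36 to 129 inferred reads per library stood behind these values. The log2 differences from control were -0.35 in the p38α KO (limma adjusted p = 0.4), while the p38α/γ KO gave -0.57 (95% interval -1.19 to 0.05, limma adjusted p = 0.15). Without library 1 of the p38α KO both passed the test, at -0.74 (limma adjusted p = 0.0107) and -0.57 (limma adjusted p = 0.00858). Pln overlaps Cep85l and Gm47644 on the other strand, and the sources used here do not say how the counting treated strand.

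Mrln, the inhibitor known from skeletal muscle, was the most abundant inhibitor in the controls. It lies at chr10:70204664-70219711 on the plus strand. Its 3 libraries had 40.3, 44.1 and 62.2 normalised counts in the p38α KO, with 47.1, 41.6 and 42.4 in the p38α/γ KO, and 55.1, 51.0 and 51.8 in the controls. Here library 3 of the p38α KO was the highest of all 9, and the p38α/γ KO libraries all lay below the controls. As a share of inferred reads, library 1 of the p38α/γ KO had 0.00499% and the controls had 0.00464% to 0.00487%. On that scale the p38α/γ KO overlapped the controls. The mean share was 0.00508% in the p38α KO, 0.0046% in the p38α/γ KO and 0.00478% in the controls. Mrln differed from control by -0.13 in the p38α KO (limma adjusted p = 0.552) and by -0.26 in the p38α/γ KO (95% interval -0.58 to 0.06, limma adjusted p = 0.189). Without library 1 of the p38α KO the p38α KO difference was -0.0063 (limma adjusted p = 0.982). Leaving out library 3 of the p38α KO took both past the threshold, at -0.31 (limma adjusted p = 0.0383) and -0.26 (limma adjusted p = 0.0396).

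With the replicate number as a block in the 6 libraries compared, a fit chosen after seeing the data, Pln and Mrln passed in the p38α/γ KO (limma adjusted p = 0.012 and 0.015). In the same fit Sln did not pass in the p38α KO (limma adjusted p = 0.0592).

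Per kilobase of exon, the mix of the 3 inhibitor RNAs differed between knockouts and controls. Sln made up 56.4%, 19.1% and 10.04% of their summed level in libraries 1, 2 and 3 of the p38α KO. The share was 28.6%, 55.3% and 44.5% in the p38α/γ KO, against 2.11%, 2.91% and 2.25% in the controls. Every knockout library was above every control. For 1000 of both pumps, also per kilobase, there were 15.7, 6.24 and 6.99 inhibitor RNAs in the p38α KO, then 8.25, 11.5 and 8.95 in the p38α/γ KO, against 5.18, 5.25 and 5.02 in the controls. These ratios describe RNA and were not tested. They also depend on the lengths used. Mrln was divided by 1180 bases of merged exons, whereas the transcript Mrln-201 has 443 bases. A shorter length would raise Mrln and lower the share of Sln.

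**Figure D3:**
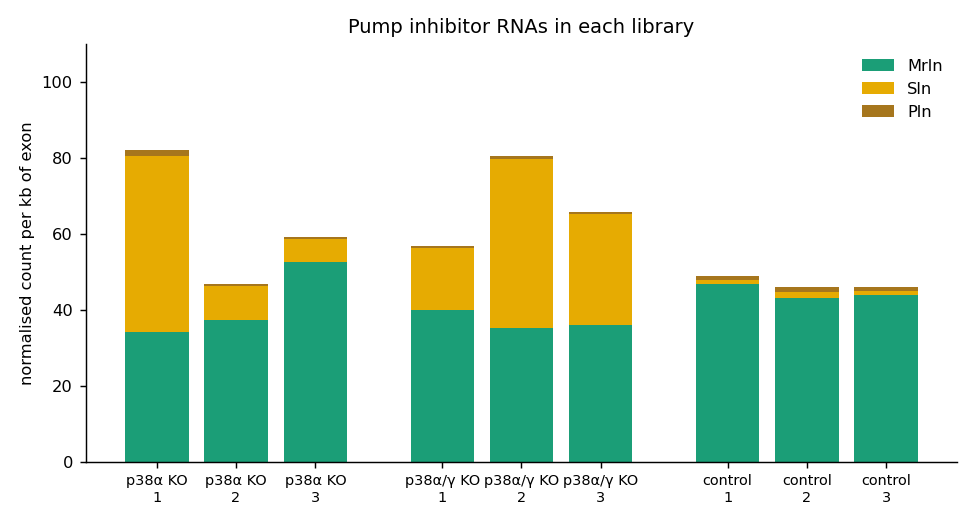
Stacked bars give Mrln, Sln and Pln in each library as normalised count per kilobase of exon, the p38α KO first, then the p38α/γ KO and the controls. Sln was 10.04% to 56.4% of the stack in knockout libraries and 2.11% to 2.91% in controls.

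Atp2a1 was lower in every knockout library than in every control, but the difference did not pass the test. It lies at chr7:126445858-126463108 on the minus strand, overlaps Rabep2 on the other strand, and ranked 3rd or 4th of all genes in every library. Libraries 1, 2 and 3 had 17855, 25948 and 29417 normalised counts in the p38α KO, with 23815, 24145 and 25305 in the p38α/γ KO, and 32539, 30177 and 31792 in the controls. Library 1 of the p38α KO was the lowest, and its group spread over a wider range than the others. The log2 differences from control were -0.40 in the p38α KO (95% interval -0.85 to 0.05, limma adjusted p = 0.193), while the p38α/γ KO gave -0.37 (95% interval -0.82 to 0.08, limma adjusted p = 0.196). As a share of inferred reads, library 3 of the p38α KO had 2.96% and the controls had 2.85% to 2.87%, so on that scale the p38α KO overlapped the controls. The p38α/γ KO libraries, at 2.52% to 2.59%, lay below the controls on that scale too. Without library 1 of the p38α KO the log2 difference of the p38α KO from control was -0.19 (limma adjusted p = 0.438). Quantile normalisation, which sets the top ranks equal between libraries, gave 0 in all comparisons.

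Atp2a2 overlapped between all groups. It lies at chr5:122453513-122502225 on the minus strand. The p38α KO libraries had 473, 293 and 140 normalised counts, the p38α/γ KO libraries 315, 367 and 392, and the control libraries 378, 438 and 242. The p38α KO held both the highest and the lowest of the 9 values, and without its library 1 its difference from control was -0.75 (limma adjusted p = 0.113). Log2 differences from control were -0.35 in the p38α KO (95% interval -1.19 to 0.49, limma adjusted p = 0.544), while the p38α/γ KO gave 0.06 (95% interval -0.78 to 0.90, limma adjusted p = 0.916).

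Pvalb, at chr15:78191114-78206400 on the minus strand, had values close to those of Atp2a1 per kilobase. Its normalised counts were 5721, 7156 and 8760 in the p38α KO, with 7038, 9172 and 8666 in the p38α/γ KO, and 9095, 8435 and 9403 in the controls. Both knockouts overlapped the controls. The log2 differences were -0.34 in the p38α KO (95% interval -0.73 to 0.06, limma adjusted p = 0.211), while the p38α/γ KO gave -0.12 (95% interval -0.52 to 0.28, limma adjusted p = 0.629). Quantile normalisation turned both signs, to 0.028 and 0.18. Without library 1 of the p38α KO the difference in the p38α KO was -0.18 (limma adjusted p = 0.451).

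The order of mean levels per kilobase differed between the groups at its lower end and at its top. In the p38α/γ KO, Pvalb (7965 ± 1071) and Atp2a1 (7024 ± 225) were followed by Atp2a2 (58.9 ± 6.51), Mrln (37.0 ± 2.54), Sln (30.0 ± 14.2) and Pln (0.693 ± 0.125), as normalised count per kilobase (SD, n = 3). In the p38α KO the order was Atp2a1 (7019 ± 1706), Pvalb (6928 ± 1460), Atp2a2 (49.7 ± 27.5), Mrln (41.4 ± 9.93), Sln (20.4 ± 22.5) and Pln (0.955 ± 0.662). The controls had Atp2a1 (9060 ± 347), Pvalb (8624 ± 475), Atp2a2 (58.0 ± 16.5), Mrln (44.6 ± 1.86), Pln (1.20 ± 0.137) and Sln (1.13 ± 0.174). Sln overlapped Pln in the controls and lay above it in every knockout library. Mrln and Sln overlapped in both knockouts, Atp2a2 and Mrln in the p38α KO and the controls, and Atp2a1 and Pvalb in all 3 groups. The place of Mrln rests on its 1180 bases of merged exons, and with the 443 bases of Mrln-201 it would stand higher.

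The 2 libraries with the most Sln, library 1 of the p38α KO and library 2 of the p38α/γ KO, also had the highest levels of an immature fibre gene and of macrophage and fibro-adipogenic progenitor markers. Myh3, the embryonic myosin heavy chain, was picked for this after its values were seen. It had 106, 28.7 and 10.5 normalised counts in the p38α KO, with 18.4, 69.1 and 29.6 in the p38α/γ KO, and 2.61, 4.01 and 4.05 in the controls. The summed level of 8 macrophage markers was 500, 353 and 219 in the p38α KO, with 362, 474 and 294 in the p38α/γ KO, and 123, 150 and 113 in the controls. At a limma adjusted p below 0.05, 7 of these 8 markers were called higher in the p38α KO, beside 7.32% of all genes. All 8 were called higher in the p38α/γ KO, beside 11.2% of all genes. Leaving out 1 library gave 2 to 8 for each knockout. With all 9 libraries, the log2 difference from control was above 0 for all 8 in each knockout. The 6 fibro-adipogenic progenitor markers, 2 of them collagen genes, summed to 1810, 1003 and 853 in the p38α KO, with 1320, 1792 and 1348 in the p38α/γ KO, and 862, 1042 and 810 in the controls. Each of these 6 also had a log2 difference above 0 against control in each knockout. Called higher were 1 of 6 in the p38α KO (0 to 2 without 1 library) and 4 of 6 in the p38α/γ KO (0 to 6). The part of these cells and fibres in the Sln result was not tested. In bulk muscle more cells of a type and more RNA per cell cannot be told apart.

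Casq2, the calsequestrin of slow fibres and heart, which stores calcium in the reticulum, followed Sln over the knockouts. It had 169, 90.0 and 37.1 normalised counts in the p38α KO, with 107, 152 and 128 in the p38α/γ KO, and 28.0, 27.3 and 29.7 in the controls. The 6 knockout libraries had the same order for Casq2 as for Sln. Casq2 rose by 2.13 in the p38α/γ KO (limma adjusted p = 0.00947) and by 1.52 in the p38α KO (limma adjusted p = 0.0346). In the p38α KO it no longer passed without library 2 of the p38α KO, library 3 of the p38α/γ KO or any 1 control, with limma adjusted p between 0.0542 and 0.094. Nor did it pass there with the replicate number as a block in all 9 libraries (limma adjusted p = 0.0504). With only the 6 libraries compared, the limma adjusted p was 0.0779, or 0.0978 with the block.

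**Figure D4:**
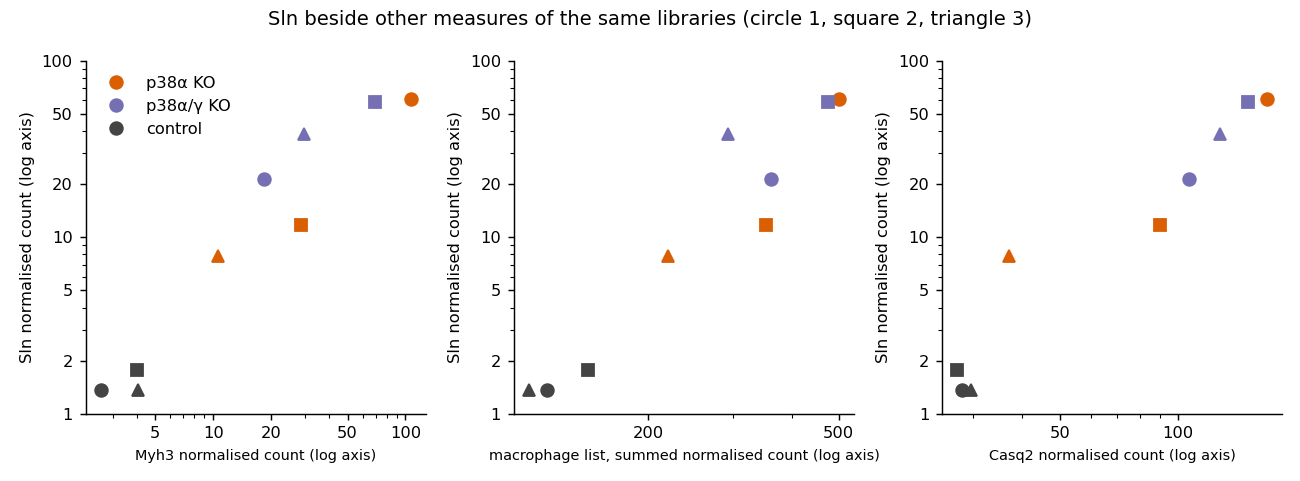
Sln normalised count against the Myh3 normalised count, the summed normalised count of 8 macrophage markers and the Casq2 normalised count, 1 point per library, all axes logarithmic. The controls sit at the lower left of each panel, with Sln between 1.36 and 1.76, and library 1 of the p38α KO is the highest in all 4 measures.

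Genes most like each member over the 9 libraries were found by Pearson r of log2(value + 1) among 7219 genes. The libraries share group and depth, so r is a description. Atp2a1 was most like Pygm, the glycogen phosphorylase of muscle (r = 0.996), then Sugt1 (0.992) and Prkcq (0.991). Atp2a2 was most like the slow-fibre genes Tnnt1 (0.969) and Myl2 (0.947), then Slco5a1 (0.938). Sln was most like Rpl36a (0.991), Pgls (0.990) and Arpc4 (0.990). Pvalb was most like Myoz1, a Z-disc gene of fast fibres (0.969). Among the genes like Mrln were Cops8 (0.955) and Krr1 (0.954). Pln, with few reads, reached only 0.899, with Fam136a.

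Tnnt1, the slow troponin T and the gene picked above as most like Atp2a2, had 189, 101 and 36.2 normalised counts in the p38α KO, with 124, 157 and 208 in the p38α/γ KO, and 136, 162 and 67.0 in the controls. Library 3 of the p38α KO and library 3 of the controls were the lowest in both genes. Other slow-fibre genes did not all share this order: Csrp3, a Z-disc gene chosen after its values were seen, had 74.1, 156 and 181 normalised counts in the controls, highest in library 3. Myh4, the fastest myosin heavy chain, picked after its values were seen, had 16781, 40521 and 49300 normalised counts in the p38α KO, with 29671, 26419 and 26354 in the p38α/γ KO, and 54053, 50577 and 52320 in the controls. As with Atp2a1, all knockout libraries were below all controls. Nor did Myh4 pass the test (limma adjusted p = 0.183 for the p38α KO, 0.0728 for the p38α/γ KO). The other fast myosin heavy chains of the list, Myh1 and Myh2, went the other way without passing. Their log2 differences were 0.093 and 0.13 in the p38α KO (limma adjusted p = 0.864 and 0.85). In the p38α/γ KO they were 0.65 and 0.80 (limma adjusted p = 0.151 and 0.164). The part of fibre type in the pump values was not tested.

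**Figure D5:**
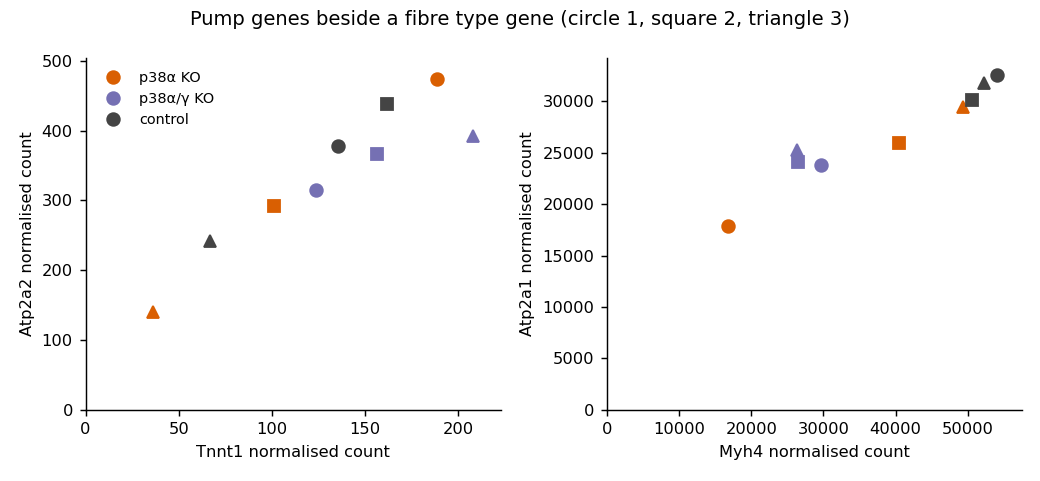
Atp2a2 against Tnnt1 and Atp2a1 against Myh4, in normalised counts, 1 point per library, with the p38α KO, the p38α/γ KO and the controls by colour. Atp2a2 is lowest where Tnnt1 is lowest, in library 3 of the p38α KO, and library 1 of the p38α KO has the lowest Atp2a1 (17855) and Myh4 (16781).

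Over all genes tested, 7.32% rose and 10.4% fell in the p38α KO, while 11.2% rose and 14.4% fell in the p38α/γ KO. These shares are the background for the gene lists that follow. In both, the genes counted as risen or fallen are those called at a limma adjusted p below 0.05. Of 18 release and triad genes, 8 fell and 0 rose in the p38α KO, and 9 fell and 0 rose in the p38α/γ KO; leaving out 1 library gave 2 to 10 and 2 to 11 that fell. Their median log2 difference was -0.37 in the p38α KO; in the p38α/γ KO it was -0.34. Jph2, which ties the reticulum to the surface membrane, averaged 358 ± 55.3 normalised counts in the p38α KO, 461 ± 43.9 in the p38α/γ KO and 695 ± 40.4 in the controls (limma adjusted p = 0.00223 for the p38α KO, 0.0124 for the p38α/γ KO). The p38α/γ KO call of Jph2 was lost without library 2 or 3 of that group or library 3 of the controls (limma adjusted p = 0.0534 to 0.0548). Itpr1, a calcium release channel, fell by 1.42 in the p38α/γ KO (limma adjusted p = 0.00686). In the p38α KO it differed by -0.97 (limma adjusted p = 0.0287), a call lost in 5 of 20 alternatives.

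Among 9 other pump and exchanger genes, 3 fell and 0 rose in the p38α KO, and 3 fell and 1 rose in the p38α/γ KO (1 to 3 and 2 to 4 that fell without 1 library). Slc8a1, the sodium-calcium exchanger best known from heart, averaged 1.21 ± 0.746 normalised counts in the p38α KO, 0.887 ± 0.51 in the p38α/γ KO and 5.43 ± 0.319 in the controls (limma adjusted p = 0.00591 for the p38α KO, 0.00427 for the p38α/γ KO). Atp2b3, a calcium pump of the surface membrane, fell by 1.17 in the p38α/γ KO (limma adjusted p = 0.00395). In the p38α KO it differed by -0.45 and did not pass (limma adjusted p = 0.0928). Of 15 store and buffer genes, 3 fell and 1 rose in the p38α KO, and 4 fell and 1 rose in the p38α/γ KO (1 to 5 and 1 to 4 that fell without 1 library).

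Of 12 kinases and phosphatases of pump regulation, 3 fell and 1 rose in the p38α KO, and 4 fell and 1 rose in the p38α/γ KO (0 to 3 and 0 to 4 that fell without 1 library). Of 8 genes of mitochondrial calcium uptake, 1 fell in the p38α KO (0 to 1 without 1 library), and 1 fell and 1 rose in the p38α/γ KO (0 to 1 and 0 to 2). Of 15 fast-fibre genes, 5 fell and 0 rose in the p38α KO, while 4 fell and 0 rose in the p38α/γ KO (2 to 9 and 1 to 6 that fell without 1 library). Mylk4, a kinase gene of the fast-fibre list, was 4.01-fold lower in value + 1 in the p38α KO (limma adjusted p = 0.000374). It was 1.55-fold lower in the p38α/γ KO (limma adjusted p = 0.0244), a call lost in 5 of 20 alternatives. Between the knockouts, p38α KO minus p38α/γ KO, its log2 difference was -1.37 (limma adjusted p = 0.00611). Of 14 slow-fibre genes, limma called 0 in either knockout, with 0 and 1 at an unadjusted p below 0.05. Without library 1 of the p38α KO, 3 slow-fibre genes were called higher in the p38α/γ KO. Regeneration and denervation genes numbered 13, of which 10 rose in the p38α KO, while 6 rose in the p38α/γ KO (2 to 10 and 1 to 11 without 1 library), among them Gadd45a, a stress gene of denervated muscle. Gadd45a rose by 2.27 in the p38α KO (limma adjusted p = 0.00198) and by 1.66 in the p38α/γ KO (limma adjusted p = 0.00644).

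The medians of these lists, as log2 differences from control, stood beside medians of 0.0084 over all genes for the p38α KO, with 0.015 for the p38α/γ KO. Regeneration and denervation genes had 1.59 for the p38α KO, with 1.33 for the p38α/γ KO. Fast-fibre genes had -0.47 for the p38α KO, with -0.29 for the p38α/γ KO, and slow-fibre genes -0.095 for the p38α KO, with 0.46 for the p38α/γ KO. The other pumps and exchangers had -0.39 for the p38α KO, with -0.18 for the p38α/γ KO. Store and buffer genes (-0.11 for the p38α KO, -0.086 for the p38α/γ KO), kinases and phosphatases (-0.097 for the p38α KO, -0.034 for the p38α/γ KO) and mitochondrial uptake genes (0.022 for the p38α KO, 0.13 for the p38α/γ KO) lay closer to the medians over all genes.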

How the data were processed

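The authors deposited 1 signal value per gene and library, named normalised counts; how they scaled or filtered it is not given in the sources used here. Per the submitters' processing notes, CASAVA 1.8, cutadapt, RSEM 1.3.1, limma and GRCm38 were used, with no order stated. Per the labels' protocols, 100 ng of RNA with a RIN above 8 entered a stranded library kit for 51-base single reads. Each deposited signal value equals a whole number plus 0.5 over a library constant. These whole numbers gave the inferred reads, which were not tested as counts.

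The test was limma 3.58.1 (R 4.3.3) on log2(value + 1) of genes that reached 1 in 3 or more libraries, all 9 libraries in 1 fit, empirical Bayes with a trend, and Benjamini-Hochberg adjustment within each of 3 comparisons. Calls were made at an adjusted p below 0.05. The script was tested on simulated data. Levels per kilobase divide by merged GENCODE M21 exons; 13166 identifiers matched. Figures used matplotlib 3.10.9 in Python 3.11.15. No sample column was left unused.

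Genes named were the 6 members, Mapk14 and Mapk12, up to 3 called genes with the lowest p from each pathway list, and the 3 genes most like each member among those with a mean of at least 10. Some genes that this rule names are not reported here. The members and lists were chosen with earlier results of these data known, and 1 list gene was matched by a RefSeq synonym after the table was seen. Casq2, Csrp3, Myh3, Myh4 and Tnnt1 were shown by library after their values were seen. Myh1, Myh2, Myh6 and Myl4 were also named after their values were seen.

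Whether equal replicate numbers pair libraries was checked by correlating deviations from group means. Between p38α/γ KO and control libraries these came to 0.111, 0.124 and 0.148, all above 0.1. This comes from the data, not the labels. The test itself has no block, and values with the block are given for the members and Casq2 where they change a call against control. For the gene lists they are not given. For equal numbers the correlations between p38α KO and control libraries came to -0.086, -0.087 and 0.095. Those between the knockouts came to -0.331, -0.228 and 0.0885. Unequal numbers reached 0.351 between the knockouts, 0.175 between p38α KO and control, and 0.018 between p38α/γ KO and control. Alternatives changed the filter, the pseudocount, the scaling, the trend, the block and the libraries in the fit. A block in the 6 libraries compared and array weights were added after seeing the data.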

Additional observations from a re-analysis of the deposited data

How the results depend on the processing

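The rise of Sln in the p38α/γ KO passed under all 20 alternatives (log2 2.69 to 4.53); 18 of 20 kept the call in the p38α KO (1.90 to 3.50); the cause of the losses was not tested. Adding the replicate block to all 9 libraries changed no member's call, though between the knockouts it called 32 genes in place of 58. With only the 6 libraries compared, all genes called numbered 1379, 5478 and 22 for the p38α KO against control, the p38α/γ KO against control and the knockouts against each other, in place of 2332, 3368 and 58. Then 3 members passed in the p38α/γ KO, with Pln at -0.57 and Mrln at -0.26. The replicate block in those 6 libraries called 310, 5563 and 16 genes; 0 members passed in the p38α KO, where Sln stayed at 2.95, and 3 in the p38α/γ KO, with Pln at -0.57 and Mrln at -0.26. Array weights, chosen after seeing the data, are given for completeness: the estimate stopped before it converged and gave library 2 of the p38α KO a weight of 36.5, with all others between 0.118 and 1.68, so its calls lean on 1 library. It called 7475, 6740 and 6087 genes and 5, 4 and 2 members. The members that newly passed were, in the p38α KO, Atp2a1 (-0.28), Pln (-0.79), Mrln (-0.24) and Pvalb (-0.34). In the p38α/γ KO they were Atp2a1 (-0.36), Pln (-0.62) and Mrln (-0.28), and between the knockouts Sln (-1.61) and Pvalb (-0.24); there Atp2a1 turned to 0.071 and Pln to -0.17. Quantile normalisation set Atp2a1 to 0 in all 3 comparisons, turned Pvalb to 0.028 in the p38α KO (0.18 in the p38α/γ KO), and turned Tpm1 to 0.13 in the p38α/γ KO. Leaving out each library in turn gave, in the p38α KO, 801 to 3241 genes called and 0 to 2 members, with Atp2a2 from -0.75 to 0.12, Sln 2.10 to 3.50, Pln -0.74 to -0.13 and Mrln -0.31 to -0.0063. In the p38α/γ KO it gave 844 to 5346 genes and 1 to 2 members, with Atp2a2 from -0.19 to 0.24, Pln -0.65 to -0.48 and Mrln -0.32 to -0.23. Between the knockouts it gave 13 to 1862 genes and 0 to 1 members, with Atp2a1 from -0.18 to 0.18, Atp2a2 -0.82 to 0.062, Sln -1.82 to -0.41, Pln -0.17 to 0.44 and Mrln -0.049 to 0.26. The filter of at least 5 in 3 libraries removed Pln. Where a group was left with 2 libraries, the spread was pooled over all groups. Depth limits Pln, and Sln in the controls; inferred reads cover counting error only.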
